A study of Mus musculus with 22 samples.

Results

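The genes described here are 10 transcripts that fat cells make in quantity, measured in dissected mouse kidney cortex: Adipoq, Cfd, Retn, Cidec, Plin1, Plin4, Adrb3, Car3, Lpl and Fabp4. They were picked by symbol with earlier results of these data already known, so their share of calls below is a description only. All 10 were found among the 16556 genes of the count table and among the 15064 genes that passed the filter on low counts. RNA was prepared with TRIzol from kidney cortex of 22 male C57BL/6J mice and sequenced as tags from the 3' ends of transcripts. Animals labelled Pt-CrAT had the carnitine acetyltransferase gene Crat deleted in the proximal tubule by a Cre recombinase under the Ggt promoter, and for the fl/fl animals the labels give a dash in place of a Cre promoter. At 12 months, with "LFD" in the title, there were 3 Pt-CrAT and 3 fl/fl libraries. At 15 months on chow there were 3 and 3, and at 24 months on chow 5 and 5. The labels do not spell out LFD, and diet and age change together between 12 months and the later settings, so the 2 cannot be told apart there.

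Fat cells hold triglyceride in a single large droplet coated by perilipins and enlarged by the CIDE protein Cidec, and they release fatty acids when adrenergic receptors raise cyclic AMP. They also secrete hormones, the adipokines, into the blood. The kidney is wrapped in perirenal fat and carries fat in its sinus. Most of the 10 genes are strongly enriched in fat cells. Lpl and Fabp4 are less so, since Lpl is also made by other parenchymal cells and Fabp4 also by capillary endothelium and macrophages, and Car3 is also abundant in muscle.

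Adipoq, Cfd, Retn, Cidec and Plin1 moved together across the libraries, as shown further on, so the bases just before their starts are printed here. RefSeq promoter windows on GRCm38.p6 matched 6 of the 10 genes and were searched over the 250 bases before each start, on both strands. Each printed run is given 5' to 3' on the gene's own strand, without any base that GENCODE M21 places in an exon, which shortened that of Plin1. For Cidec the windows before both listed starts are shown, of which the first is also the GENCODE gene start and the second lies inside the gene. Capitals mark TTGCNNAA, a core of the sites that C/EBP factors bind.
Adipoq, chr16:23146286-23146535, plus strand: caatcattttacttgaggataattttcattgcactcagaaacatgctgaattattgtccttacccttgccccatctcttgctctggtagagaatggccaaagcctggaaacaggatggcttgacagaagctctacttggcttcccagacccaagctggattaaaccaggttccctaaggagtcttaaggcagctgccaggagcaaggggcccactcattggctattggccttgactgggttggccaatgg
Cfd, chr10:79890603-79890852, plus strand: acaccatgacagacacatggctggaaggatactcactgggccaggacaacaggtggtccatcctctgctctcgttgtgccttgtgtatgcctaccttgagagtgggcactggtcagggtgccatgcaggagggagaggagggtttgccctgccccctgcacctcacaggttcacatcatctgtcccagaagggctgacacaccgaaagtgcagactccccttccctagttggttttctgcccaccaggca
Retn, chr8:3655520-3655769, plus strand: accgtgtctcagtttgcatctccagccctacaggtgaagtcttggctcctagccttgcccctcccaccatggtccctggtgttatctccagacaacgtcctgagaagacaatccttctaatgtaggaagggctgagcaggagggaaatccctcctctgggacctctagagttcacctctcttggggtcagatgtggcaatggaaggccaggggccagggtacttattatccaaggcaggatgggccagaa
Cidec, chr6:113435761-113436010, minus strand: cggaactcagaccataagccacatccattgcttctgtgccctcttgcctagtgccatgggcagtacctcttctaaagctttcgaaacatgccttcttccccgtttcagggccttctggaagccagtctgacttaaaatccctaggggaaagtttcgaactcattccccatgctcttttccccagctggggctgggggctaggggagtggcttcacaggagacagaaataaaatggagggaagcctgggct
Cidec, chr6:113434765-113435014, minus strand: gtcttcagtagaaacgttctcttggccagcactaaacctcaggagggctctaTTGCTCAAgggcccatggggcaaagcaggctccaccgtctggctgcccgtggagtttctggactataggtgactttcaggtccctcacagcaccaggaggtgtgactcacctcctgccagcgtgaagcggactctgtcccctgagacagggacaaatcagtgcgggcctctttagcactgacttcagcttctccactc
Plin1, chr7:79732904-79733026, minus strand: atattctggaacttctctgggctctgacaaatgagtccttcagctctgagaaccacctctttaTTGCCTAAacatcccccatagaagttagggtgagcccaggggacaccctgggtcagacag

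TTGCNNAA lay at -198 to -191 from the second Cidec start and at -187 to -180 and -58 to -51 from the Plin1 start, the last in bases not printed. It was neither in the window before the first Cidec start nor in the windows of the other matched genes, and 9.56% of 32851 RefSeq promoter windows held it. The 3 other motifs searched matched none of the windows. These were the direct repeat of AGGTCA with 1 base between, the form that PPAR and RXR bind, held by 0.0335% of promoters, AGGTCA alone by 14%, and TATAAA by 12.4%. A match is only a match of letters, and each repeat holds AGGTCA.

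Library depth was 12175804 to 17447367 counts, with the exception of CrAT12MLFD345 at 53157575. Crat itself, whose 3' tags need not lie in the deleted part, was 62.5 ± 19.4 CPM in Pt-CrAT and 78.9 ± 22.5 CPM in fl/fl at 12 months (SD, n = 3 each; exact two-sided permutation p = 0.4), and ran against the labels at 15 months, with 69.1 ± 5.27 CPM in the libraries labelled Pt-CrAT and 45.3 ± 13.3 CPM in those labelled fl/fl (SD, n = 3 each; exact permutation p = 0.1, the smallest possible). At 24 months it was 36.2 ± 4.41 CPM in Pt-CrAT and 74.7 ± 24.4 CPM in fl/fl (SD, n = 5 each; exact permutation p = 0.00794, the smallest possible). The 3' end of Crat is overlapped by Dolpp1 on the other strand. No source used here says whether counting used strand, so Crat counts could include reads of Dolpp1. Wt12MLFD326 differed from the other fl/fl libraries of its setting by a chi-square of 84.1 and 123.2 per degree of freedom, against 24.1 between those 2. CrAT24Mchow123 and CrAT24Mchow136 held 14344 and 12102 CPM summed over 12 proximal tubule markers, where the other libraries held 31496 CPM or more. CPM values are scaled by the TMM factors throughout.

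On GRCm38 with GENCODE M21, all 10 are protein-coding genes. Adipoq lies at chr16:23146536-23158028 and Cfd at chr10:79890853-79892655, both on the plus strand, and Cidec at chr6:113424634-113435760, Plin1 at chr7:79720218-79732903 and Plin4 at chr17:56100591-56109803, all on the minus strand. Chromosome 8 holds Retn (chr8:3655770-3660110, plus), Adrb3 (chr8:27225776-27250616, minus) and Lpl (chr8:68880491-68907448, plus), and chromosome 3 holds Fabp4 (chr3:10204088-10208576, minus) and Car3 (chr3:14863512-14872523, plus). QuantSeq 3' tags count reads near the end of each transcript.

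All 10 genes were detected, and Adipoq, Cfd, Plin1, Plin4, Car3, Lpl and Fabp4 had reads in each of the 22 libraries. The lowest level was in CrAT24Mchow123 for 6 of the genes, and the highest in CrAT12MLFD345 for 7. Adipoq spanned 0.197 CPM (3 reads) to 28.0 CPM (1357 reads), a 142-fold range, and Retn, Cidec and Plin1 spanned 141-fold, 116-fold and 100-fold above their lowest libraries with a read. Cfd spanned 75.7-fold. The other 5 ranged less, from 23.5-fold for Car3 down to 2.91-fold for Lpl. Retn had no read in Wt12MLFD326 and Wt15Mchow227, Cidec none in CrAT24Mchow123 and Adrb3 none in Wt12MLFD327. A count of 0 allows up to 0.240, 0.231, 0.197 and 0.200 CPM in these libraries, counting error only.

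**Figure D1:**
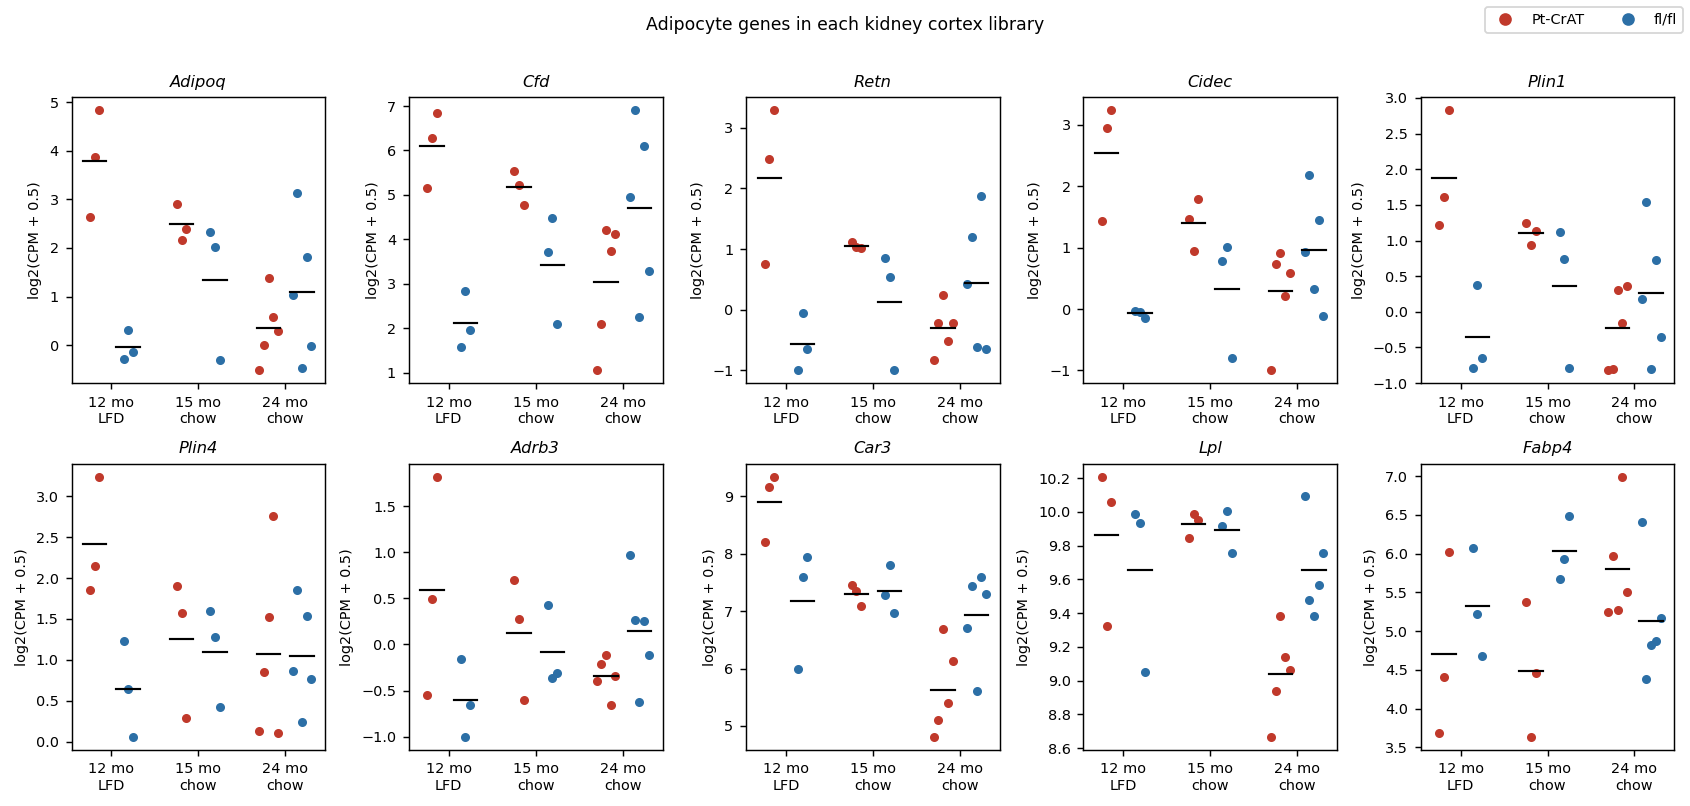
Level of each of the 10 genes in each library, as log2(CPM + 0.5) on the vertical axis, by setting on the horizontal axis, with Pt-CrAT libraries in red left of fl/fl libraries in blue and a bar at the mean of each group. Adipoq, Cfd, Retn, Cidec, Plin1, Plin4 and Car3 have all 3 Pt-CrAT libraries above all 3 fl/fl libraries at 12 months, and the groups overlap in all 10 genes at 24 months.

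At 12 months, 8 of the 10 genes were higher in Pt-CrAT cortex than in fl/fl cortex and none was lower, by edgeR's quasi-likelihood F test with Benjamini-Hochberg adjustment over all 15064 genes (adjusted p under 0.05). Of all genes tested, 8.41% were called higher, 7.95% lower and 16.4% in either direction. With the 10 picked as described, no test of their share against these was made. They had a median log2 fold change of 3.28, against 0.00 over all genes. In 7 of the 10 every Pt-CrAT library lay above every fl/fl library, where 16.3% of all genes did so. In bulk tissue, more fat cells in the dissected piece, more of these transcripts per fat cell and more of them from other cells cannot be told apart.

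The 3 adipokines had the 3 largest fold changes of the 10 genes. Adiponectin (Adipoq), the hormone that fat cells secrete to raise insulin sensitivity, stood at 5.75, 14.1 and 28.0 CPM in Pt-CrAT libraries CrAT12MLFD328, CrAT12MLFD337 and CrAT12MLFD345, against 0.320, 0.735 and 0.407 CPM in fl/fl libraries Wt12MLFD326, Wt12MLFD327 and Wt12MLFD368, the order kept for this setting. All 3 Pt-CrAT libraries were higher, with a log2 fold change of 5.01 (SE 1.08, edgeR adjusted p = 0.00927). Cfd encodes adipsin, the complement factor D protease that fat cells release. It stood at 35.2, 77.3 and 115 CPM in Pt-CrAT libraries, against 2.48, 6.61 and 3.39 CPM in fl/fl libraries, and the groups did not overlap (log2 fold change 4.18, SE 1.08, edgeR adjusted p = 0.0192). Retn encodes resistin, an adipokine of mouse fat that lowers insulin sensitivity. It stood at 1.19, 5.09 and 9.24 CPM in Pt-CrAT libraries, against 0, 0.468 and 0.136 CPM in fl/fl libraries. The lowest Pt-CrAT library rested on 13 reads and still lay above each fl/fl library (log2 fold change 4.62, SE 1.07, edgeR adjusted p = 0.0121).

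Genes of the fat droplet also rose. Cidec, which joins droplets so that lipid passes into the larger one, stood at 2.19, 7.23 and 8.89 CPM in Pt-CrAT libraries, against 0.480, 0.468 and 0.407 CPM in fl/fl libraries. The fl/fl libraries were close to each other and the groups did not overlap (log2 fold change 3.77, SE 0.85, edgeR adjusted p = 0.0102). Plin1, the perilipin that guards the droplet of the fat cell against lipases, stood at 1.83, 2.55 and 6.58 CPM in Pt-CrAT libraries, against 0.0799, 0.802 and 0.136 CPM in fl/fl libraries. CrAT12MLFD345 was the highest and the groups did not overlap (log2 fold change 3.42, SE 0.93, edgeR adjusted p = 0.0214). Plin4, a perilipin of small and new droplets, stood at 3.1, 3.94 and 8.95 CPM in Pt-CrAT libraries, against 1.84, 1.07 and 0.543 CPM in fl/fl libraries (log2 fold change 2.28, SE 0.77, edgeR adjusted p = 0.0474). Its groups lay closer, without overlap. The 3' end of Plin4 on GRCm38 chromosome 17 is overlapped by Hdgfl2 on the other strand, and no source used here says whether counting used strand, so reads of the 2 genes could be mixed.

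Adrb3 encodes the beta-3 adrenergic receptor, through which noradrenaline starts lipolysis in rodent fat. It stood at 0.183, 0.904 and 3.03 CPM in Pt-CrAT libraries, against 0.400, 0 and 0.136 CPM in fl/fl libraries, from 2, 11 and 147 reads against 5, 0 and 2 reads. Its groups overlapped, since CrAT12MLFD328 lay below Wt12MLFD326 (log2 fold change 3.14, SE 0.90, edgeR adjusted p = 0.0248). Car3, the cytosolic carbonic anhydrase that is among the most abundant proteins of rodent fat, stood at 294, 576 and 649 CPM in Pt-CrAT libraries, against 63.5, 192 and 246 CPM in fl/fl libraries. The groups did not overlap, and the difference was smaller than for the adipokines (log2 fold change 1.60, SE 0.53, edgeR adjusted p = 0.0475). Car3 averaged 167 CPM in these fl/fl libraries, where Adipoq averaged 0.487 CPM. In the Pt-CrAT libraries the averages were 506 CPM for Car3 and 16.0 CPM for Adipoq. Which cells made the Car3 reads was not tested.

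Lpl and Fabp4 did not pass the test. Lpl, the lipase that frees fatty acids from circulating lipoproteins at the vessel wall, stood at 1183, 641 and 1065 CPM in Pt-CrAT libraries, against 1013, 978 and 530.3 CPM in fl/fl libraries (log2 fold change 0.20, SE 0.24, edgeR adjusted p = 0.597). Fabp4, the cytosolic fatty acid carrier of fat cells, stood at 12.4, 20.8 and 64.4 CPM in Pt-CrAT libraries, against 66.6, 36.9 and 25 CPM in fl/fl libraries (log2 fold change -0.37, SE 0.63, edgeR adjusted p = 0.725). Both groups overlapped widely in these 2 genes.

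**Figure D2:**
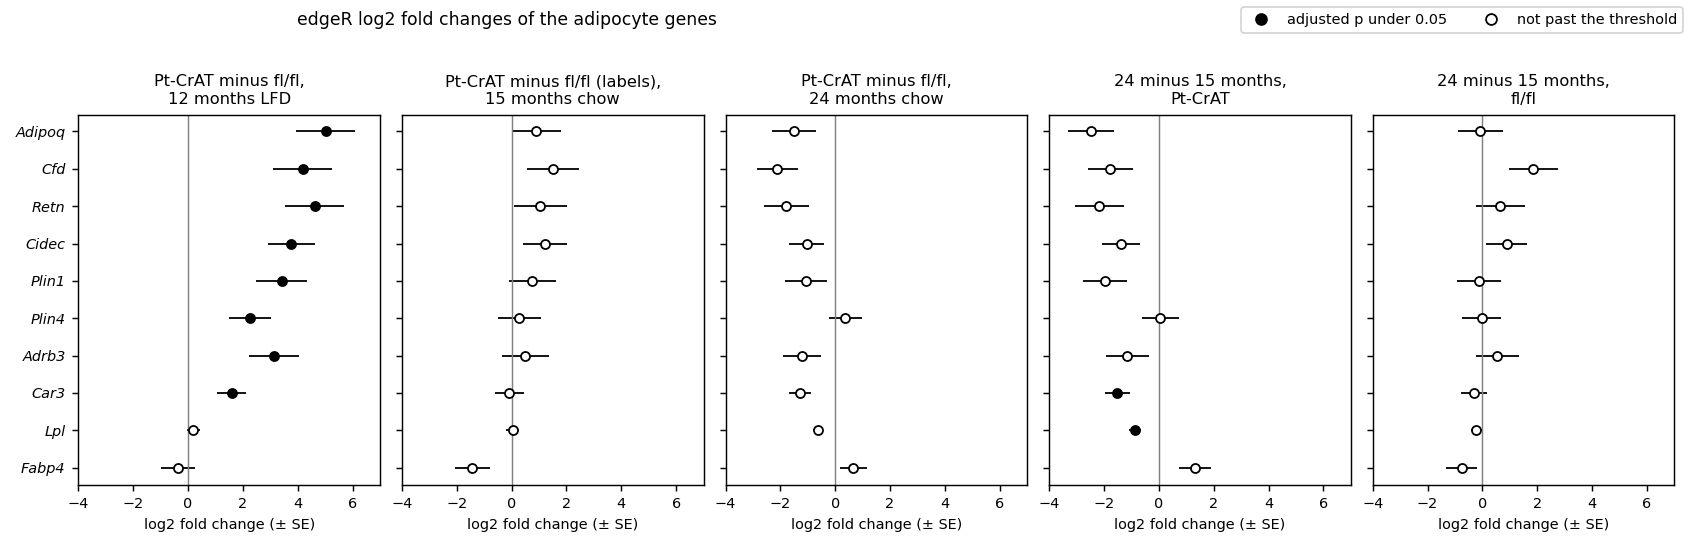
Log2 fold changes with their standard errors (horizontal axis) of the 10 genes (vertical axis) in 5 comparisons, filled where the edgeR adjusted p was under 0.05. At 12 months 8 points are filled, all to the right of 0, and in Pt-CrAT from 15 to 24 months Car3 and Lpl are filled to the left of 0.

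Each 12-month call was lost in at least 1 of the 6 fits that left out 1 library. Over all genes, 53 to 3513 were called in these fits, against 2464 with all libraries. Without Wt12MLFD326, Adrb3 alone kept its call, and the adjusted p of Adipoq, Cfd, Retn, Cidec and Plin1 was 0.0611, 0.116, 0.0693, 0.0539 and 0.111. Adipoq, Retn and Cidec kept theirs without CrAT12MLFD328 and also without CrAT12MLFD337, these 3 with Cfd without CrAT12MLFD345, these 4 with Plin1 without Wt12MLFD327, and all but Plin4 without Wt12MLFD368. The log2 fold changes stayed positive for all 8 genes in the 6 fits with 1 library left out. They ran from 4.32 to 5.46 for Adipoq, 3.75 to 4.70 for Cfd, 3.38 to 4.16 for Cidec and 1.21 to 2.0 for Car3. Without the deeply sequenced CrAT12MLFD345, Retn stood at a log2 fold change of 3.86, Plin1 to 2.63, Plin4 to 1.64 and Adrb3 to 1.68. Without Wt12MLFD327, Retn stood at 6.07 and Plin1 at 5.03. A fit on the 6 libraries of this setting alone left the fold changes of the 7 genes it tested among these 8 between 1.58 and 5.0 and called none, with adjusted p from 0.117 to 0.158.

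**Figure D3:**
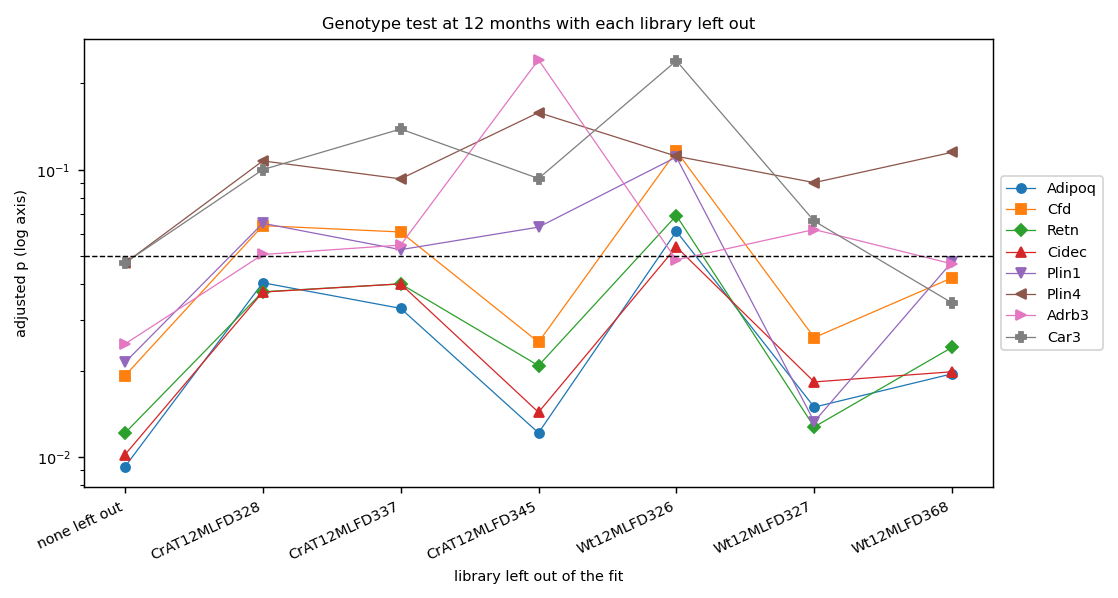
Adjusted p of the 12-month genotype test (vertical log axis, edgeR) for the 8 genes called, with all libraries in the fit and with each library of the setting left out in turn (horizontal axis); the dashed line is 0.05 and lines join the points of a gene. Without Wt12MLFD326 only Adrb3 lies under the line, and Plin4 lies above it in all 6 fits with a library left out.

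Summed markers of macrophages and of the proximal tubule overlapped between the genotypes at 12 months. Over 12 macrophage markers, Pt-CrAT libraries held 510 to 795 CPM and fl/fl libraries 163 to 680 CPM, with Wt12MLFD326 the lowest. Of the 12, the scavenger receptor Cd163 alone was called, 8.33% of the list where 8.41% of all genes were called higher (log2 fold change 4.73, SE 1.06, edgeR adjusted p = 0.00921). The 12 proximal tubule markers summed to 63520 to 77136 CPM in Pt-CrAT and 51866 to 67425 CPM in fl/fl libraries. Of these 12, 1 was called higher (8.33%) and 3 lower (25%), where 7.95% of all genes were called lower. For Car3, which muscle also makes, the muscle genes Mylpf and Pvalb, the latter also made by the distal tubule, were tested and neither was called. The part of these cell types in the difference of the fat cell genes was not tested. Genes of the adrenal cortex, which lies beside the kidney in the same fat, were near 0, with 0.365 to 0.722 CPM summed over 3 genes in Pt-CrAT and 0.475 to 0.802 CPM in fl/fl.

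Counts of calls in the lists that follow stand against 8.41% of all genes called higher and 7.95% lower at 12 months. Of 16 further genes of white fat cells tested, 2 were called higher in Pt-CrAT (12.5%), 1 lower (6.25%) and 13 neither, shares close to those of all genes, with a median log2 fold change of 0.33. Nnat, a small membrane protein found in fat and endocrine cells, averaged 2.01 ± 1.42 CPM in Pt-CrAT and 0.166 ± 0.0353 CPM in fl/fl (SD, n = 3 each; edgeR adjusted p = 0.00707). Adig, adipogenin, averaged 1.16 ± 0.815 CPM in Pt-CrAT and 0.229 ± 0.166 CPM in fl/fl (SD, n = 3 each; edgeR adjusted p = 0.039). The glycerol channel Aqp7, which the proximal tubule also makes, was the gene called lower, with 5.53 ± 1.13 CPM in Pt-CrAT and 10.9 ± 3.06 CPM in fl/fl (SD, n = 3 each; edgeR adjusted p = 0.0135). Leptin (Lep) did not pass the filter on low counts. It averaged 1.41 ± 1.28 CPM in Pt-CrAT and 0.0493 ± 0.0431 CPM in fl/fl (SD, n = 3 each), with no overlap.

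Of 9 regulators of fat cell differentiation tested, 2 were called higher (22.2%) and 1 lower (11.1%). Ebf2 (log2 fold change 2.40, edgeR adjusted p = 0.0432) and the oxysterol receptor Nr1h3 (0.49, edgeR adjusted p = 0.0375) were higher and Klf15 (-0.94, edgeR adjusted p = 0.0241) lower. Of 30 genes of lipolysis and triglyceride synthesis, 4 were called higher (13.3%) and 1 lower (3.33%). The 4 were the perilipin Plin5 (log2 fold change 0.80, edgeR adjusted p = 0.0198), the fatty acid synthase Fasn (0.82, adjusted p = 0.0339), the monoglyceride lipase Mgll (0.67, adjusted p = 0.042) and Gpihbp1 (0.86, adjusted p = 0.0177), the capillary anchor of the Lpl protein. The desaturase Scd2 was lower (-1.07, edgeR adjusted p = 0.0142). None of 10 genes of beta-adrenergic and cyclic AMP signalling or of 5 of brown fat was called. Ucp1, the uncoupler of brown fat, averaged 1.28 CPM in Pt-CrAT and 0.999 CPM in fl/fl (edgeR adjusted p = 0.643). Of 7 adipokine and insulin receptor genes, none was called higher and 2 lower (28.6%). Insr (-0.49, edgeR adjusted p = 0.0476) and the resistin-binding Cap1 (-0.67, edgeR adjusted p = 0.0351) were lower, and the adiponectin receptor Adipor1 was not (-0.28, edgeR adjusted p = 0.117). Of 15 genes of the stroma and progenitor cells of fat, 3 were called higher (20%), led by Clec3b (3.61, edgeR adjusted p = 0.00489) and Pi16 (1.45, edgeR adjusted p = 0.0153), and 3 lower (20%), led by the platelet-derived growth factor receptor Pdgfra (-0.94, edgeR adjusted p = 0.0191).

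At 15 months none of the 10 genes passed the test between the libraries labelled Pt-CrAT and those labelled fl/fl, and 0% of all genes did (lowest edgeR adjusted p = 0.581; 1249 genes at an unadjusted p under 0.05). DESeq2 and limma-voom also called 0 genes here. Adipoq stood at 7.0, 3.96 and 4.75 CPM in CrAT15Mchow183, CrAT15Mchow185 and CrAT15Mchow204, labelled Pt-CrAT, against 4.51, 3.57 and 0.307 CPM in Wt15Mchow205, Wt15Mchow225 and Wt15Mchow227, labelled fl/fl. The groups overlapped, and Wt15Mchow227 stood apart as the lowest. It was also the lowest for Cfd, Retn, Cidec, Plin1 and Car3. Without it the log2 fold change was 0.37 for Adipoq (0.90 with it) and 0.22 for Plin1 (0.76 with it). Cfd stood at 46.0, 36.9 and 26.9 CPM in libraries labelled Pt-CrAT, against 12.7, 21.8 and 3.77 CPM in those labelled fl/fl (log2 fold change 1.52, SE 0.96, edgeR adjusted p = 0.595). Retn stood at 1.66, 1.56 and 1.53 CPM, against 1.30, 0.962 and 0 CPM in fl/fl (1.05, SE 0.96, edgeR adjusted p = 0.684). In these 2 genes every library labelled Pt-CrAT lay above, where 11.6% of all genes did so. Fabp4 lay the other way, at 40.9, 12.0 and 21.5 CPM in libraries labelled Pt-CrAT and 50.5, 60.7 and 88.9 CPM in those labelled fl/fl (-1.43, SE 0.65, unadjusted p = 0.0392, edgeR adjusted p = 0.581). In 12.7% of all genes every library labelled Pt-CrAT lay below. The median log2 fold change of the 10 was 0.63, against 0.01 over all genes.

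At 24 months again none of the 10 genes passed the test, and 0% of all genes did (lowest edgeR adjusted p over all genes 0.0771; 1409 genes at an unadjusted p under 0.05; DESeq2 called 13 genes, none of them among the 10, and limma-voom 0). All but Plin4 of the 10 genes had an estimate on the other side of 0 from that at 12 months, with a median log2 fold change of -1.14 against 0.02 over all genes. None of the 10 separated the groups, where 0.797% of all genes had every Pt-CrAT library below and 0.737% above. Adipoq stood at 0.197, 0.509, 2.12, 0.993 and 0.716 CPM in Pt-CrAT libraries CrAT24Mchow123, CrAT24Mchow124, CrAT24Mchow135, CrAT24Mchow136 and CrAT24Mchow146, against 1.54, 8.24, 0.226, 3.01 and 0.492 CPM in fl/fl libraries Wt24Mchow145, Wt24Mchow154, Wt24Mchow164, Wt24Mchow165 and Wt24Mchow168 (-1.50, SE 0.79, edgeR adjusted p = 0.554). Cfd stood at 1.57, 3.78, 18.0, 12.9 and 16.9 CPM in Pt-CrAT libraries, against 30.4, 119, 4.30, 68.6 and 9.21 CPM in fl/fl libraries (-2.11, SE 0.75, edgeR adjusted p = 0.461). The fl/fl libraries were the more spread. The estimates of Adipoq, Cidec and Plin1 rested in large part on Wt24Mchow154, and that of Cfd less so. Without it they were -0.47 for Adipoq, -1.39 for Cfd, -0.49 for Cidec and -0.33 for Plin1. Summed over Adipoq, Cfd, Retn, Cidec and Plin1, Wt24Mchow154 held 135.5 CPM, within the 46.1 to 167 CPM of the 12-month Pt-CrAT libraries, and Wt24Mchow164 held 5.50 CPM, within the 3.36 to 9.08 CPM of the 12-month fl/fl libraries.

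Car3 stood at 27.6, 34.0, 103, 41.9 and 69.2 CPM in Pt-CrAT libraries at 24 months, against 104, 173, 48.3, 192 and 157 CPM in fl/fl libraries (-1.29, SE 0.41, unadjusted p = 0.00575, edgeR adjusted p = 0.461). Lpl stood at 406, 491, 668, 563 and 534 CPM in Pt-CrAT libraries, against 1092, 711, 667, 759 and 865 CPM in fl/fl libraries (-0.62, SE 0.18, unadjusted p = 0.00248, edgeR adjusted p = 0.446). In each of these 2 genes Wt24Mchow164 was the fl/fl library within the Pt-CrAT range. Retn was at -1.78 (-1.05 without Wt24Mchow165), Adrb3 at -1.20 (-0.70 without Wt24Mchow145), Plin1 at -1.08 and Cidec at -1.04 on the log2 scale, and Plin4 (0.37) and Fabp4 (0.66, and 0.21 without CrAT24Mchow136) lay above 0. Plin4 rested on CrAT24Mchow136, which had 6.29 CPM where the other Pt-CrAT libraries had 0.573 to 2.39 CPM, and its estimate was -0.48 without that library.

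The genotype difference at 12 months was set against that at 24 months within the same fit, as the difference of the 2 log2 fold changes. It passed the test in 7 of the 10 genes, all higher at 12 months, where 8.66% of all genes did so and 17% passed in either direction. The difference was 6.51 for Adipoq (SE 1.33, edgeR adjusted p = 0.00936), 6.39 for Retn (SE 1.36, edgeR adjusted p = 0.00992) and 6.29 for Cfd (SE 1.32, edgeR adjusted p = 0.0101). It was 4.81 for Cidec, 4.49 for Plin1, 4.34 for Adrb3 and 2.88 for Car3, with edgeR adjusted p from 0.011 to 0.0215. Plin4 (1.90, edgeR adjusted p = 0.168), Lpl (0.82, edgeR adjusted p = 0.0589; DESeq2 adjusted p = 0.0338) and Fabp4 (-1.02, edgeR adjusted p = 0.385) did not pass. Adipoq, Cfd, Retn and Cidec kept this call in all 16 fits that left out 1 library. Plin1 lost it without Wt12MLFD326 or CrAT12MLFD328, Adrb3 without CrAT12MLFD345, where it stood at 2.87, and Car3 without Wt12MLFD326.

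From 15 to 24 months, both on chow, Lpl and Car3 fell in the libraries labelled Pt-CrAT. These were 2 of the 10 genes, where 5.71% of all genes were called lower and 11.3% in either direction. Lpl averaged 532 ± 96.2 CPM at 24 months (SD, n = 5) and 976 ± 49.4 CPM at 15 months (SD, n = 3), a log2 fold change of -0.87 (SE 0.21, edgeR adjusted p = 0.00985). Car3 averaged 55.1 ± 31.0 CPM at 24 months (SD, n = 5) and 157 ± 19.9 CPM at 15 months (SD, n = 3), a log2 fold change of -1.51 (SE 0.46, edgeR adjusted p = 0.0404). Every 24-month library lay below every 15-month library in 7 of the 10 genes, where 11.3% of all genes did so. Adipoq (-2.47, edgeR adjusted p = 0.0623; DESeq2 adjusted p = 0.0465), Retn (-2.17, adjusted p = 0.124), Plin1 (-1.95, adjusted p = 0.123), Cfd (-1.78, adjusted p = 0.171) and Cidec (-1.37, adjusted p = 0.208) were the other 5. Fabp4 lay above 0 (1.32, edgeR adjusted p = 0.157). Crat itself was called lower at 24 months than at 15 months in the libraries labelled Pt-CrAT (-0.93, edgeR adjusted p = 0.0165), the 15-month libraries being those in which it ran against the labels.

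Both calls depended on single libraries. Neither gene kept its call without CrAT15Mchow185 or without CrAT15Mchow204 (Lpl adjusted p = 0.0561 and 0.0568), and Car3 also lost it without CrAT15Mchow183, CrAT24Mchow123, CrAT24Mchow124 or CrAT24Mchow136, with adjusted p from 0.0813 to 0.122 over all 6 such fits. Without CrAT24Mchow123 and CrAT24Mchow136 together, the pair low in proximal tubule markers, Lpl was at -0.80 (adjusted p = 0.0687) and Car3 at -1.20 (adjusted p = 0.219). Over this interval 6 of 12 proximal tubule markers were called lower, where 5.71% of all genes were, and 5 of 6 tested markers of medulla and urothelium were called higher, where 5.61% of all genes were. The 7 listed medulla and urothelium markers summed to 1049 to 2014 CPM at 24 months and 722 to 1251 CPM at 15 months in libraries labelled Pt-CrAT. The 3 muscle genes found summed to 6.88 to 25.5 CPM at 24 months and 32.1 to 49.5 CPM at 15 months, without overlap. Nearly all of that sum was Pvalb, which the distal tubule of the kidney also makes, and Pvalb was called lower (-1.28, edgeR adjusted p = 0.0349). Mylpf, a myosin light chain of muscle, was not (0.09, edgeR adjusted p = 0.886), and Acta1, the actin of skeletal muscle, averaged 0.121 CPM at 24 months and 0.149 CPM at 15 months and was not tested. The part of cortex, medulla and muscle content in the changes of Car3 and Lpl was not tested.

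In the libraries labelled fl/fl none of the 10 genes passed from 15 to 24 months, where 1.3% of all genes did. Crat ran against the labels at 15 months, so the genotype of the 15-month libraries is given as labelled. Adipoq, at 1.54, 8.24, 0.226, 3.01 and 0.492 CPM at 24 months and 4.51, 3.57 and 0.307 CPM at 15 months, differed by a log2 fold change of -0.07 (SE 0.83, edgeR adjusted p = 0.972). Cfd had the largest estimate, at 1.85 (SE 0.90, edgeR adjusted p = 0.24), and at 1.13 without Wt24Mchow154. Its libraries overlapped, with 4.30 to 119 CPM at 24 months and 3.77 to 21.8 CPM at 15 months.

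Among themselves the genes fell into a tight group and a loose remainder. The Pearson r of log2(CPM + 0.5) over the 22 libraries was 0.886 to 0.969 for the 10 pairs of Adipoq, Cfd, Retn, Cidec and Plin1, and 0.790 to 0.932 for their deviations from the group means. The 5 were grouped by name and not by a clustering of these values. The values also share libraries, depth and scaling factors and are a description. With Adipoq, r was 0.75 for Car3, 0.74 for Plin4, 0.66 for Adrb3, 0.44 for Lpl and -0.31 for Fabp4. Within groups, r with Adipoq was 0.65 for Plin4, 0.64 for Car3, 0.51 for Adrb3, 0.13 for Lpl and 0.05 for Fabp4. Animals of 1 group thus differed from each other in the 5 genes at once. The 5 summed to 1.90 to 23.0 CPM over the 24-month Pt-CrAT libraries and 5.50 to 135.5 CPM over the 24-month fl/fl libraries. Cfd made up most of each sum, as with 119 of the 135.5 CPM in Wt24Mchow154.

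**Figure D4:**
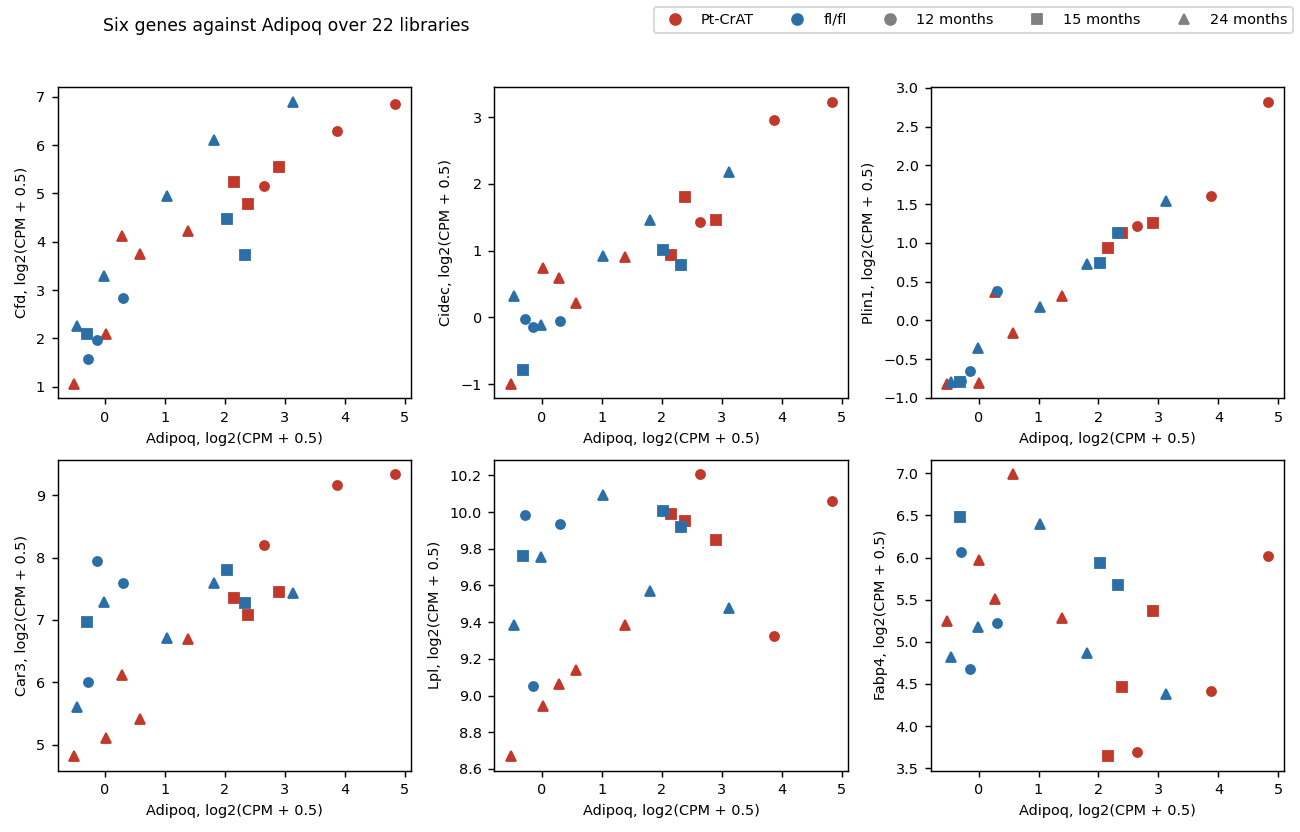
Cfd, Cidec, Plin1, Car3, Lpl and Fabp4 (vertical axes) against Adipoq (horizontal axes), all as log2(CPM + 0.5), with 1 point per library, colour for genotype and shape for age. Cfd, Cidec and Plin1 follow Adipoq across groups (r 0.90, 0.93 and 0.97 over 22 libraries), Car3 less so (0.75), while Lpl (0.44) and Fabp4 (-0.31) scatter.

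The reads of the adipokines Cfd and Adipoq were also set against each other within each library, as a description. There were 4.10 to 6.11 Cfd reads per Adipoq read in Pt-CrAT and 7.75 to 9.0 in fl/fl at 12 months. The 15-month libraries had 5.66 to 9.32 in those labelled Pt-CrAT and 2.81 to 12.3 in those labelled fl/fl, and the 24-month libraries 7.43 to 23.6 in Pt-CrAT and 14.4 to 22.8 in fl/fl. The 5 fl/fl libraries of 24 months thus all lay above the 3 of 15 months, while their Adipoq levels overlapped. Several ratios rest on few Adipoq reads (3 in CrAT24Mchow123 and in Wt24Mchow164), and none was tested.

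**Figure D5:**
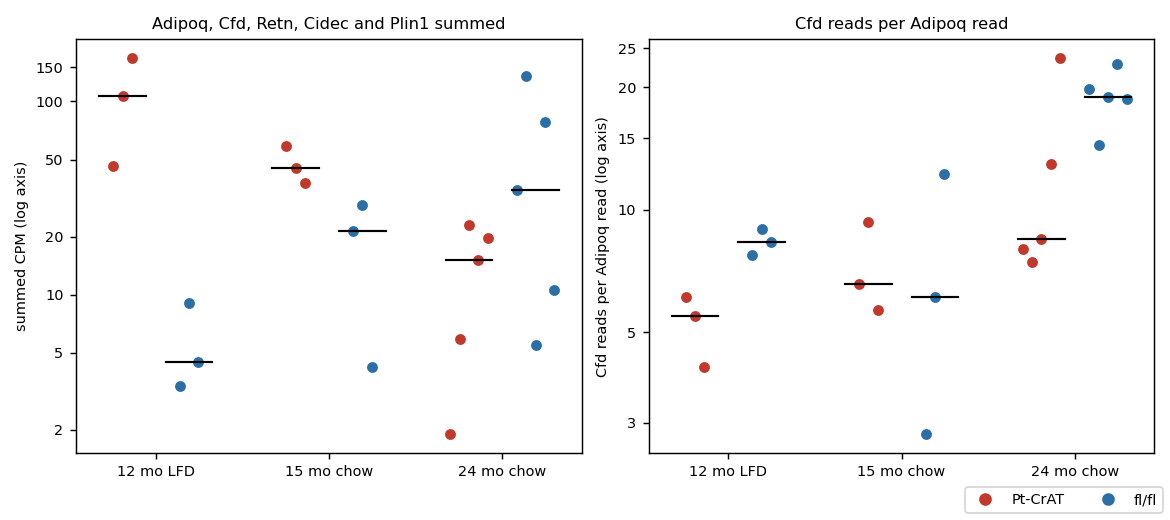
Left, the summed CPM of Adipoq, Cfd, Retn, Cidec and Plin1 in each library (vertical log axis); right, Cfd reads per Adipoq read (vertical log axis); both by setting, with Pt-CrAT in red left of fl/fl in blue and a bar at each group's median. The sum, of which Cfd is the largest part, is 46.1 to 167 CPM in Pt-CrAT and 3.36 to 9.08 CPM in fl/fl at 12 months. The ratio lies between 14.4 and 22.8 in all 24-month fl/fl libraries.

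Among 15027 other tested genes with a symbol, those most like the mean of the 5 tightly linked genes over the 22 libraries were Apol6 (r 0.87), Hp (0.83), Nnat (0.82), Cpxm2 (0.80), Meg3 (0.76), Myoc (0.76), Clec3b (0.75), Ncaph2 (0.74), Polr1b (0.74) and Otub1 (0.73). Apol6 and Hp, which encodes haptoglobin, were also among the 10 closest within groups (r 0.73 and 0.68). Hp stood at 5.48, 13.1 and 17.8 CPM in Pt-CrAT and 0.640, 1.54 and 1.83 CPM in fl/fl at 12 months, a log2 fold change of 3.18 (SE 0.50, edgeR adjusted p = 0.00363). Myoc, myocilin, a secreted protein of connective tissue and the eye, stood at 7.30, 12.7 and 15.7 CPM in Pt-CrAT and 0.240, 0.067 and 0.204 CPM in fl/fl, a log2 fold change of 6.11 (SE 0.95, edgeR adjusted p = 0.00363). At 24 months neither was called, at a log2 fold change of -0.16 for Hp and 1.40 for Myoc. All but Ncaph2 of the 10 were called higher at 12 months, where 8.41% of all genes were. They were picked by their likeness over all libraries, which includes that shared difference, so this count is a description only.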

How the data were processed

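Whole-number counts per Ensembl gene were deposited for 22 libraries, 1 for each mouse title, per the labels; a second deposited table holds a normalized signal, in which the authors divided the counts by 1 size factor per library, and it was used only for gene symbols. GRCm38, R 3.4.3 and DESeq2 1.18.1 come from the submitters' processing notes. Aligner, counting program and strand setting were not given in the sources used here. Nothing says whether the libraries came from separate litters or days, and p-values measure the spread between these animals.

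All 22 libraries were fitted with edgeR 4.0.16 in R 4.3.3 (6 groups, TMM scaling, filterByExpr, quasi-likelihood F test, Benjamini-Hochberg adjustment over 15064 genes, threshold 0.05); the biological coefficient of variation was 20.5% with 16 residual degrees of freedom. Contrasts were Pt-CrAT minus fl/fl in each setting, the 12-month difference minus the 24-month difference, and 24 minus 15 months within each genotype. Alternatives were DESeq2 1.42.0, limma-voom 3.58.1, DESeq2 size factors, no filter on low counts, a fit on the compared groups alone, and leaving out libraries. The script was tested on simulated counts. Replicates differed by a chi-square of 9.43 to 123 per degree of freedom over 32 pairs, so none was taken as a repeat deposit. Of 16556 gene IDs, 16514 were in GENCODE M21.

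The 10 genes and the other gene lists, which cover other fat cell genes, fat cell regulators, lipolysis and triglyceride synthesis, beta-adrenergic signalling, brown fat, adipokine receptors, fat stroma, mesothelium, endothelium, macrophages, red cells, adrenal cortex, proximal tubule, podocytes, muscle, lymphoid cells, and medulla with urothelium, were chosen with earlier results of these data known. Of each list, up to 4 called genes by smallest p were named, otherwise up to 3 with the highest mean CPM, and the 10 genes of highest r with the 5 linked genes. A few others, such as Lep, Ucp1, Adipor1, Adig and Mgll, were named after their values were seen.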

Additional observations from a re-analysis of the deposited data

Results flagged for a closer look

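The genotype difference of 7 genes differed between the 12-month and the 24-month setting, by the test of that difference in the edgeR fit. All 7 were higher at 12 months, where 8.66% of all genes passed in that direction. On the log2 scale, the difference at 12 months minus that at 24 months was 6.51 for Adipoq, 6.29 for Cfd, 6.39 for Retn, 4.81 for Cidec, 4.49 for Plin1, 4.34 for Adrb3 and 2.88 for Car3. In 6 of these, all but Adrb3, each 12-month Pt-CrAT library lay above each 12-month fl/fl library, where 16.3% of all genes did so. At 24 months the groups overlapped in all 7, where 0.797% of all genes had every Pt-CrAT library below and 0.737% above. Diet and age both differ between these settings.

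Within groups of 5, a library far from the others was picked out by Dixon's criterion at its 95% critical value, which chance alone meets in about 1 in 20 groups. Fabp4 stood at 127 CPM in CrAT24Mchow136, where the other Pt-CrAT libraries of 24 months held 37.6 to 62.2 CPM. The same library had the lowest Crat of its group, at 28.4 CPM against 37.7 to 38.9 CPM, and the lowest proximal tubule sum of all libraries. Fabp4 also stood at 84.0 CPM in Wt24Mchow145, where the other fl/fl libraries of 24 months held 20.4 to 35.5 CPM.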

How the results depend on the processing

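No paired analysis was possible because the replicate numbers are not shared between groups. Under DESeq2 size factors and limma-voom each count of calls stayed within 1.5 times its value as reported. With DESeq2, 13 genes were called at 24 months (0 by edgeR) and 764 between ages in fl/fl (196 by edgeR). Fitted on the compared groups alone, 0 of the 10 genes and 1 gene in all were called at 12 months (8 and 2464 as reported), 4 genes at 15 months (0), 1302 genes for the 12-month against the 24-month difference (2562), and 4 of the 10 genes between ages in Pt-CrAT (2). These 4 were Lpl with Adipoq, Retn and Plin1 (adjusted p = 0.0155, 0.0194 and 0.0438), while Car3 lost its call (0.0559). DESeq2 also called Adipoq between ages in Pt-CrAT (adjusted p = 0.0465) and Lpl for the 12-month against the 24-month difference (0.0338). Leaving out Wt12MLFD326 and CrAT12MLFD328 together, an alternative chosen after seeing the data, gave 0 of the 10 genes and 19 genes at 12 months, with Fabp4 at 0.49 (log2) instead of -0.37. Leaving out CrAT24Mchow123 and CrAT24Mchow136, also chosen after seeing the data, gave 0 of the 10 genes and 417 genes between ages in Pt-CrAT (2 and 1705), and Plin4 at -0.26 at 24 months (0.37) and at -0.57 between ages in Pt-CrAT (0.06), where limma-voom gave -0.28. Without the filter on low counts, Plin4 (adjusted p = 0.0534) and Car3 (0.0566) lost their 12-month call.

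With 1 library left out at a time, between 1 and 7 of the 10 genes and 53 to 3513 genes were called at 12 months, 5 to 8 and 2.1e+02 to 3627 for the difference between 12 and 24 months, 0 to 3 and 393 to 1777 between ages in Pt-CrAT, 3 to 756 genes between ages in fl/fl, and 0 to 2 genes at 24 months. Estimates that changed sign in such fits, none of them called, ran on the log2 scale from -0.034 to 0.43 for Lpl and -1.35 to 0.11 for Fabp4 at 12 months, from -0.12 to 0.67 for Plin4, -0.081 to 1.19 for Adrb3, -0.26 to 0.16 for Car3 and -0.033 to 0.075 for Lpl at 15 months, from -0.48 to 0.68 for Plin4 at 24 months, from -1.10 to 0.44 for Adipoq, -0.072 to 1.26 for Retn, -0.87 to 0.49 for Plin1 and -0.36 to 0.31 for Plin4 between ages in fl/fl, and from -0.79 to 0.46 for Plin4 between ages in Pt-CrAT. The causes were not tested. Low reads limit Adipoq, Retn, Plin1 and Adrb3, each with 5 or fewer reads in 4 or more libraries, and Cidec, with 0 and 1 reads in 2 libraries.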

Other observations

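Ranked by deviations from the group means instead of by levels, the genes closest to the 5 linked fat cell genes were Ciart (r 0.78), a repressor of the circadian clock, Apol6 (0.73), Cidea (0.73), a droplet protein related to Cidec, and Tlx2 (0.72), over 22 libraries that share depth and scaling. Ciart had an r of 0.04 over levels, where the group means enter. Cidea, which mouse fat makes most in its brown form, was not called at 12 months (edgeR adjusted p = 0.479).

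Between genotypes at 12 months, where 8.41% of all genes were called higher and 7.95% lower, none of 5 mesothelium and capsule genes tested, 6 red cell genes, 2 adrenal cortex genes, 5 podocyte genes, 2 muscle genes, 5 lymphoid genes and 6 medulla and urothelium genes was called, and of 10 endothelial genes Cdh5, the cadherin of endothelial junctions, was called lower (log2 fold change -1.28, SE 0.30, edgeR adjusted p = 0.011). Of 12 proximal tubule genes 4 were called, where 16.4% of all genes were called in either direction. The brush border enzyme gene Ggt1 was called higher (0.98, edgeR adjusted p = 0.00978) and Slc7a8, the endocytic receptor Lrp2 and Slc27a2 lower (-1.87, -1.12 and -0.68). The 3 muscle genes found, nearly all of whose sum was Pvalb, which the distal tubule also makes, stood at 88.8 to 112 CPM in Pt-CrAT and 61.3 to 91.2 CPM in fl/fl at 12 months, against 6.88 to 25.5 CPM in Pt-CrAT and 15.9 to 42.1 CPM in fl/fl at 24 months.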
